A study of Mus musculus with 50 samples.

Results

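The genes followed here are 45 amino acid and stress response genes that the transcription factor ATF4 is known for, among them its own gene. They were taken by name, and an Agilent probe was assigned to a gene by its RefSeq accession or by the symbol in its description. Of the 45 genes, 42 had at least 1 probe, 60 probes in all, among the 34498 genes of the Agilent array. Eprs, Lars and Xpot were not matched by this rule. Probes that the files describe as those of Eprs and Xpot had mean log2 ratios of -0.021 ± 0.0465 and -0.051 ± 0.0445 (SE, n = 10 arrays) and are not counted. Of the 41174 probes of the array, 22072 were named by accession and 2319 by description. Apart from those of Eprs and Xpot, each probe without a name was counted as a gene of its own. Shares of all genes below therefore include many unnamed probes.

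Male mice, wild-type (WT) or transgenic (TG), gave hippocampal RNA that was hybridized to 10 two-color Agilent arrays, each with 1 mouse of each genotype. The TG mice overexpress δC-DCLK-short, a short product of the Dclk1 gene whose kinase is always active, on a C57/BL6j background, and the WT mice are C57/BL6j. The mice are WT1, WT3, WT4, WT5 and WT6 and TG1 to TG5. Each of these 10 mice was on 2 arrays, once in Cy3 and once in Cy5. WT was in Cy3 on arrays 1 to 5 and TG was in Cy3 on arrays 6 to 10. The promoter of the transgene, the number of founder lines and the age of the mice are not given in the sources used here. In RNA of a whole hippocampus, fewer cells of a type and less RNA per cell cannot be told apart.

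ATF4 is made when eukaryotic initiation factor 2 is phosphorylated, which slows most translation but lets the ribosome reach the ATF4 reading frame. The kinases that do this sense missing amino acids, unfolded protein in the endoplasmic reticulum, double-stranded RNA or lack of heme. ATF4 then pairs with C/EBP proteins and switches on genes for amino acid uptake, for the synthesis of serine, proline and asparagine, and for the charging of tRNA, together with regulators that end the response or lead to cell death. In neurons ATF4, also called CREB2, is known as a brake on long-term synaptic plasticity.

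ATF4 and C/EBP bind a composite element that joins a part of a C/EBP site to a part of an ATF site. The letters TGATGNAAN, where N is any base, were searched on both strands of RefSeq promoters of the GRCm38.p6 assembly, from 250 bases before to 50 bases after the start of a gene. The opposite strand reads NTTNCATCA. A promoter was held for 37 of the 45 genes. Of these, 15 (40.5%) had a match, against 1299 of 32851 promoters (3.95%) of all genes. The stretches below are shown because they carry the match before the start of the gene, with 45 bases on each side as far as the start. For Aars, a further match after the start is not shown. Gars, Pycr1, Tars and Vldlr, none of which passed that limit, also carry a match before the start and are not shown. Asns, Chac1 and Pck2 passed the limit for a difference between TG and WT given further on, and Slc7a11, Atf3, Nupr1 and Aars did not. Capitals mark the match.
Asns, chr6:7693210-7693277, minus strand: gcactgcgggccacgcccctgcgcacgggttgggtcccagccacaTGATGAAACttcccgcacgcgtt
Chac1, chr2:119351003-119351101, plus strand: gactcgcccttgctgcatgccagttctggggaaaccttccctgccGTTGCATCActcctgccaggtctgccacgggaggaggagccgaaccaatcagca
Pck2, chr14:55540117-55540215, plus strand: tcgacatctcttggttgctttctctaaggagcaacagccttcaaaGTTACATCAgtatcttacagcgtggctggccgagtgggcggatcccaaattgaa
Slc7a11, chr3:50443614-50443724, minus strand: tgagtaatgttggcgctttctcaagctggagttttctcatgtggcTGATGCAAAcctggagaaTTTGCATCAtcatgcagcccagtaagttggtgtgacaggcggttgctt
Atf3, chr1:191183391-191183489, minus strand: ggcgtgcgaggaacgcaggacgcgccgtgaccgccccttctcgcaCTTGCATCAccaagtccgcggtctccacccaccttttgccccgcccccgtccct
Nupr1, chr7:126625528-126625626, minus strand: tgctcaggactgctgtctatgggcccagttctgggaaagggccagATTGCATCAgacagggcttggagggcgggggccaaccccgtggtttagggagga
Aars, chr8:111033684-111033782, plus strand: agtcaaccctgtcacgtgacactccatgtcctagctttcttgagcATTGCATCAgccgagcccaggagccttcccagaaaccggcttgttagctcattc

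In Asns the match lies 23 bases before the start, and in Slc7a11 the stretch holds 2 matches, 1 on each strand. Of the 8 genes past the limit for which a promoter was held, 4 had a match, the fourth being Slc1a4, where it spans the start. No match was found in the windows of Atf4, Ddit3, Psat1 and Slc38a2, which says only that these letters are not in them.

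Before the values, the labels of the arrays have to be considered. A table of channel values given with the study, of which 667 genes were held, was set against the deposited arrays over 19 channels, with each gene represented by its best correlated probe. The median of this correlation was 0.822 with the arrays as labelled and 0.935 after arrays 1 to 5 were exchanged with arrays 6 to 10, and it was higher after the exchange for 625 of the 667 genes. Every direction below is that of the labels. The labelled directions are the reverse of the sign the study gives for Atf4, Chac1 and Mthfd2. The study reports these genes as higher in TG also on ABI, Affymetrix and Illumina arrays and by quantitative RT-PCR. Those measurements do not depend on the Agilent labels. All directions turn with the exchange. Sizes, errors and the number of genes past the limit over the 10 arrays stay the same, whereas values by mouse do not. The gene of the transgene could not settle the labels, since Dclk1 had a log2 ratio of -0.068 ± 0.0318 over 4 probes (FDR 0.273), from -0.26 to 0.046 on the arrays, and the sources used here do not say whether these probes cover the transgene.

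The arrays were alike in the share of probes well above background in both dyes, 80.1% to 88.4%. Their median signal before normalization varied more, from 109 to 169.4 in Cy3 and from 77.93 (array 7) to 164.7 (array 5) in Cy5. Of the 42 genes, 40 were well above background in every channel. The exceptions were Stc2 (4 WT and 5 TG channels of 10) and Atf3 (7 and 9). No gene was saturated. All 50 marker genes of 12 cell types, regions and states were well above background on all arrays, those of pyramidal and dentate granule cells among them. The mouse labelled TG4 stood apart. The summed signal of 4 neuron markers was 7924 in TG4 and 10739 to 13259 in the other mice, but these genes did not move together. Snap25 and Syt1 were lowest in TG4 (log2 signal 11.72 and 8.97, against 12.8 to 13.19 and 9.42 to 9.8), whereas Rbfox3 and Stmn2 were highest there (9.44 and 11.71, against 8.37 to 8.8 and 11.2 to 11.6). TG4 also had the lowest sums of dentate granule cell (634, against 676 to 790), endothelial (696, against 838 to 998) and thalamus markers (587, against 717 to 880), and the highest of astrocyte markers (5024, against 3623 to 4291) and immediate early genes (2194, against 1539 to 1881). For pyramidal cell, microglia, choroid plexus, meninges and red blood cell markers it lay within the range of the other mice. Markers within these lists did not move together either. Of the astrocyte markers, Slc1a3 and Gja1 were highest in TG4 (11.55 and 10.13), Gfap was lowest (6.72), and Aqp4 and Aldh1l1 lay within the range of the others. Of the immediate early genes, Egr1 and Arc were highest (9.71 and 9.38) and Junb was lowest (8.84). Prox1 of the dentate granule cells was highest (7.17). In the fit over the arrays described below, 8 of the 50 markers passed the limit, a larger share than the 8.17% of all genes. C1ql2 (dentate granule cells, -0.30), Mbp (myelin, -0.51), Cldn5 (endothelium, -0.25) and Alas2 (red blood cells, -0.12) were lower in TG as labelled, and Aqp4 and Aldh1l1 (astrocytes, 0.30 and 0.23), Fos and Arc (immediate early genes, 0.26 and 0.30) were higher. Without passing, Gfap and Gja1 (astrocytes, -0.15 and -0.079) and Npas4 (an immediate early gene, -0.0036) had means below 0. Of the 5 myelin markers, 1 had a mean above 0. After the exchange, the arrays of the mouse labelled TG4, 1 and 9, would both carry WT5. The genes past the limit are therefore given with and without it, and the part of these markers in the results was not tested.

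In the limma fit over all genes with a false discovery rate (FDR) limit of 0.1, 10 of the 42 genes (23.8%) differed between TG and WT, against 8.17% of all genes. Of these, 8 were lower in TG as labelled (19%, against 4.12% of all genes) and 2 were higher (4.76%, against 4.05%). Atf4 itself, Chac1, Psat1, Asns, Slc38a2, Slc7a3, Slc1a4 and Cars were lower, and Ddit3 and Pck2 were higher. The lower ones had ratios of TG over WT between 0.665 and 0.937, and the higher ones of 1.11 and 1.21. Nearly all of the 42 genes were bright, and dim probes count among all genes. With only probes well above background on all arrays, 11 of 40 genes passed, 9 lower and 2 higher, against 13% of all genes. The median log2 ratio was -0.040 over the 42 genes and 0.0034 over all genes, and 28 of the 42 had a mean below 0 (66.7%, against 47% of all genes). This shift depends on loess. With median centring in its place, 21 of the 42 and 20551 of 34498 genes had a mean below 0, with medians of -0.00081 and -0.0266. On 4 of the 42 (9.52%, against 2.28% of all genes) the 10 arrays had 1 sign, namely Atf4, Psat1 and Slc1a4 below 0 and Pck2 above.

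**Figure D1:**
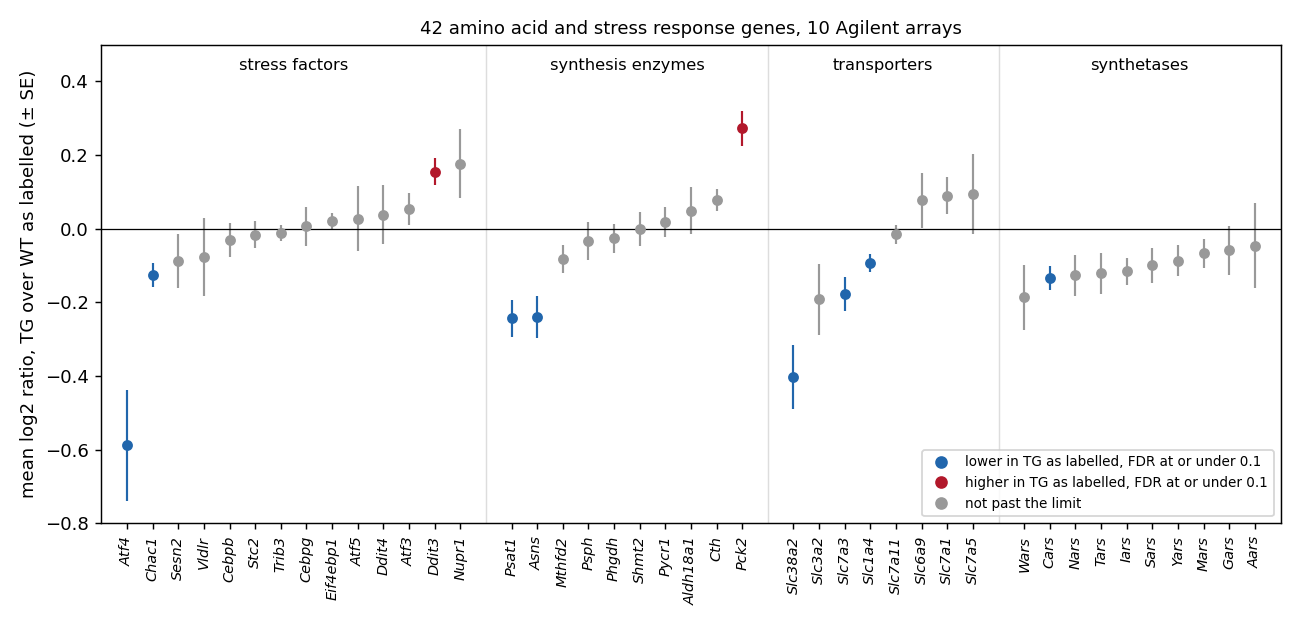
Mean log2 ratio of TG over WT as labelled (y axis, bars are SE, n = 10 arrays) of each of the 42 genes by role (x axis). Blue genes were lower and red genes higher at an FDR of at most 0.1, and gray genes did not pass. Atf4 at -0.59 is the lowest, Pck2 at 0.27 the highest, and all 10 synthetases lie below 0.

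The number of calls depends on how arrays and mice enter the fit. The fit treats the 10 arrays as independent, although they hold 5 mice of each genotype. With 1 value per mouse, made from both dyes after normalization of the single channels, none of the 42 genes passed in limma (0 of 42, against 0.0841% of all genes). Of the 42, 8 had an unadjusted p under 0.05 in this fit, and the share of all genes at that p was not counted. Values by mouse after the exchange of arrays gave 0 of 42 as well, against 0.0319%. Both fits by mouse also give up the pairing of WT and TG on an array and have no term for array or dye. In the paper, Agilent intensities gave no genes at an FDR of 0.1 without these terms. How much of the fall comes from the mouse as the unit was not tested. With the mouse as a random replicate block, the number of all genes past the limit was 5189 for the WT mouse and 4217 for the TG mouse in place of 2819, and 12 and 11 of the 42 genes passed. The 2 arrays of a mouse have opposite dyes, and the block correlations were negative (-0.252 and -0.162), which makes the errors smaller. These counts therefore make no allowance for shared mice. With a dye term, chosen after seeing the data, 3745 and 2331 genes passed, and again 12 and 11 of the 42. Leaving out 1 mouse, with its 2 arrays, left 1 to 10 of the 42 genes past the limit, the fewest (Pck2) without WT4, and 334 to 2970 of all genes.

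Among the 14 stress factors, which are transcription factors and regulators of the response, 2 were lower, 1 was higher and 11 did not pass. Their median log2 ratio was -0.0026. Of the 14 means, 7 were below 0 and 7 above.

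Atf4 encodes the factor that drives the response. Its probe (chr15:80309350-80309409 in the files, which name no build) had log2 ratios from -1.74 to -0.16 on the 10 arrays, with a median of -0.40. It was below 0 on all 10 arrays, as were 1.25% of all genes. The mean was -0.59 ± 0.151 (SE, n = 10 arrays; FDR 0.0555), a ratio of 0.665, and it was -0.60 with WT in Cy3 and -0.57 with TG in Cy3. By mouse, the log2 signal was 9.66, 9.72, 9.95, 9.88 and 9.73 in WT1, WT3, WT4, WT5 and WT6, and 9.48, 9.48, 9.56, 8.09 and 9.38 in TG1 to TG5. All TG mice were below all WT mice, and TG4 was far below the other TG mice. Without TG4 the mean was -0.34 ± 0.0371 (n = 8 arrays; FDR 0.00695), so the gene passed with a smaller difference and a smaller error. It also passed without WT6, whereas it did not pass without any 1 of the other 8 mice (log2 ratio -0.66 to -0.46, FDR 0.102 to 0.154), nor without array 2, 3 or 6 alone.

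Chac1 encodes an enzyme that degrades glutathione and is switched on late in the response. Its log2 ratio ran from -0.31 to 0.015 over the arrays, with a median of -0.13, and it was below 0 on 9 of 10. The mean was -0.13 ± 0.0328 (FDR 0.0563), a ratio of 0.916. By mouse, the signal was 7.70 to 8.20 in WT with a median of 7.89, and 7.67 to 7.92 in TG with a median of 7.78, so the groups overlapped. Without TG4 the mean was -0.12 ± 0.039 and did not pass (FDR 0.152). Nor did it pass without any other single mouse (-0.15 to -0.10, FDR from 0.103 to 0.19) or without array 9.

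Ddit3 encodes CHOP, a factor of the same family that ATF4 induces and that favors cell death under long stress. It was the stress factor that moved the other way, with a log2 ratio from -0.043 to 0.36, a median of 0.15 and a mean of 0.16 ± 0.0368 (FDR 0.0454). It was above 0 on 9 of 10 arrays. By mouse, the signal was 8.31 to 8.66 in WT and 8.55 to 8.83 in TG, with overlap. Without TG4 it was 0.17 ± 0.0426 (FDR 0.0727). It did not pass without WT3, WT4, WT5, TG2, TG3 or TG5 (0.13 to 0.16, FDR 0.125 to 0.177), nor without array 2.

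The other stress factors had means between -0.087 and 0.18, and their arrays fell on both sides of 0. Nupr1, a small stress-induced chromatin protein, had the largest mean of them, 0.18 ± 0.095 (FDR 0.356), and ran from -0.37 to 0.61. Atf3 and Trib3, known as strongly induced by ATF4, had 0.052 ± 0.0434 and -0.011 ± 0.0215 (FDR 0.61 and 0.873). Sesn2, an inhibitor of mTORC1, had -0.087 ± 0.0726, and Ddit4, another such inhibitor, 0.038 ± 0.0794. Without TG4 these were -0.037 ± 0.0792 and 0.13 ± 0.0613. For Eif4ebp1, which blocks cap-dependent translation, the mean was 0.020 ± 0.0212. Atf5, Cebpb, Cebpg, Vldlr and Stc2 lay between -0.078 and 0.027, none of them with an FDR under 0.803. Without TG4 Atf5 had -0.077 ± 0.069 and Vldlr -0.011 ± 0.0896.

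Of the 10 synthesis enzymes, 2 were lower, 1 was higher and 7 did not pass, with a median of -0.014. The 2 lower ones make asparagine and serine, and the higher one is a mitochondrial enzyme of gluconeogenesis.

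Psat1, the aminotransferase of the serine pathway, had log2 ratios from -0.50 to -0.046 with a median of -0.22, below 0 on all 10 arrays. The mean was -0.24 ± 0.0501 (FDR 0.0293), a ratio of 0.844. By mouse, the signal was 10, 9.95, 9.94, 9.95 and 9.9 in the WT mice in their order and 9.88, 9.66, 9.52, 9.79 and 9.66 in TG1 to TG5. The WT mice lay close together and all TG mice were below them. Psat1 did not pass without WT4 (-0.22, FDR 0.135) or TG3 (-0.23, FDR 0.103), and it passed without each other mouse and each array. Atf4, Psat1 and Sars were the 3 of 42 genes (7.14%) with all TG below all WT, against 1.19% of all genes, and 0 of 42 had all TG above all WT, against 0.928%. After the exchange Atf4 and Psat1 were without overlap, TG above WT, and Sars was not.

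Asns encodes asparagine synthetase, the classic readout of the amino acid response. Its log2 ratio ran from -0.58 to 0.088 with a median of -0.27 and was above 0 on arrays 8 and 10. The mean was -0.24 ± 0.0572 (FDR 0.0461), a ratio of 0.847. By mouse, the signal was 10.58, 10.65, 10.24, 10.68 and 10.56 in WT and 10.20, 10.40, 10.20, 10.29 and 10.44 in TG. WT4 was the WT mouse within the range of the TG mice. Without TG4 Asns did not pass (-0.24 ± 0.0683, FDR 0.11). The same held without WT1, WT3, WT4, WT5, TG1 or TG2 (-0.27 to -0.18, FDR 0.105 to 0.198) and without array 2.

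Pck2, mitochondrial phosphoenolpyruvate carboxykinase, had log2 ratios from 0.096 to 0.63 with a median of 0.23, above 0 on all 10 arrays, as were 1.04% of all genes. The mean was 0.27 ± 0.048 (FDR 0.0176), the smallest FDR of the 42 genes. The signal was 7.70 to 8.24 in the WT mice and 8.19 to 8.40 in the TG mice, and WT5 was the WT mouse above the lowest TG mouse. It passed without TG4 (0.20 ± 0.0284, FDR 0.016) and was the gene that passed without each array and each mouse in turn.

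Mthfd2, a mitochondrial enzyme of the folate cycle, did not pass. Its log2 ratio ran from -0.35 to 0.11 with a mean of -0.083 ± 0.0383 (FDR 0.27) and was below 0 on 8 of 10 arrays. Among the alternative fits, it passed under robust regression only (-0.081 ± 0.0197, FDR 0.0429). The signal was 6.45 to 6.69 in WT and 6.43 to 6.59 in TG. The other enzymes of the serine pathway, Phgdh and Psph, had -0.026 ± 0.0393 and -0.034 ± 0.0507, so Psat1 was the one of these 3 enzymes that passed. That they differ from Psat1 was not tested. The proline enzymes Pycr1 and Aldh18a1 (0.018 and 0.048), Shmt2 (-0.0017), which makes glycine from serine, and Cth (0.078 ± 0.0302, FDR 0.177), which makes cysteine, did not pass. Without TG4 Aldh18a1 had -0.020 ± 0.058, Shmt2 -0.046 ± 0.046 and Pycr1 0.0044 ± 0.0495.

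**Figure D2:**
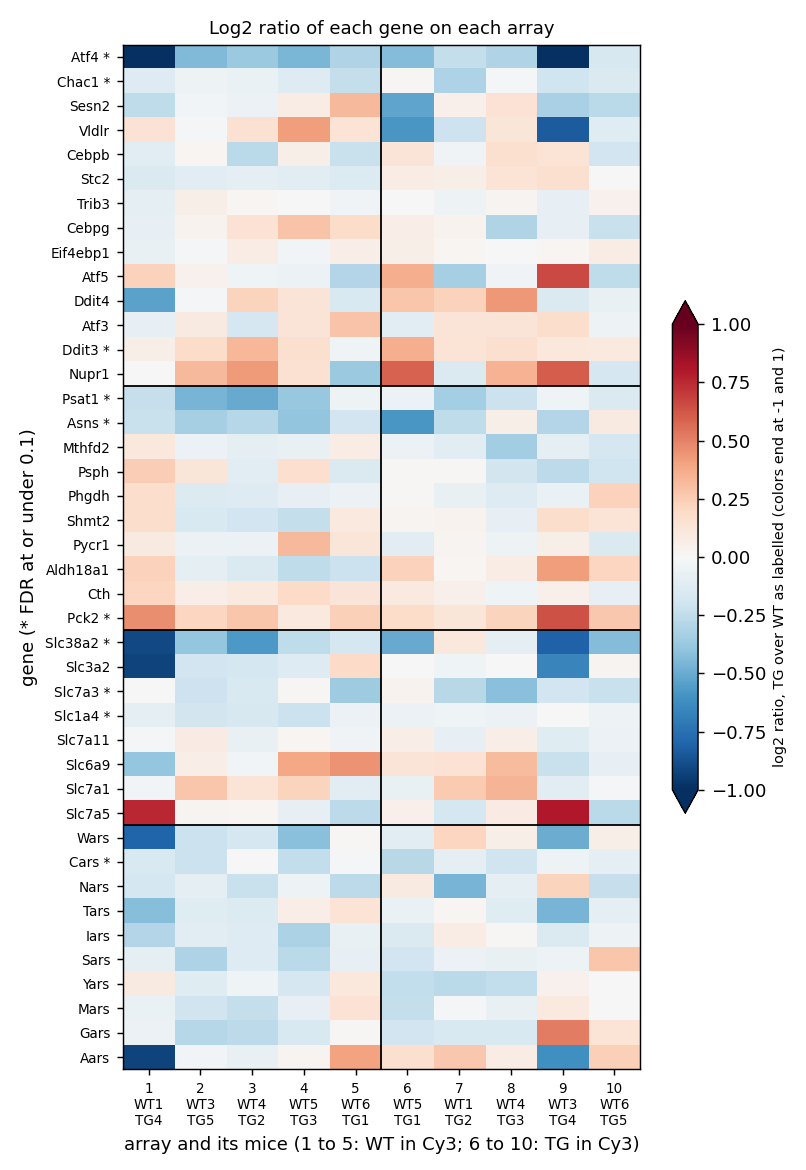
Log2 ratio of TG over WT as labelled (color) of each of the 42 genes (rows, by role, * for an FDR of at most 0.1) on each of the 10 arrays (columns, with their mice). Atf4 is blue and Pck2 is red on every array, and the strongest colors stand on arrays 1 and 9, which share TG4.

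Of the 8 transporters, 3 were lower, none was higher at this limit (0 of 8 in limma, and 0 of 8 above 0 at an unadjusted p under 0.05) and 5 did not pass. Their median was -0.054, and 5 of 8 means were below 0.

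Slc38a2, the SNAT2 carrier of small neutral amino acids, had the largest change of the group. Its log2 ratios ran from -0.90 to 0.10 with a median of -0.41 and were above 0 on array 7. The mean was -0.40 ± 0.0882 (FDR 0.0349), a ratio of 0.756. Its 2 probes had means of -0.36 ± 0.0745 and -0.45 ± 0.134. By mouse, the signal was 8.16, 8.18, 8.53, 8.62 and 8.29 in WT and 8.17, 8.07, 8.33, 7.36 and 7.83 in TG, lowest in TG4 as for Atf4. Without TG4 the mean was -0.29 ± 0.0696 (FDR 0.0667). Slc38a2 did not pass without WT3, WT4, WT5 or TG5 (-0.42 to -0.35, FDR 0.117 to 0.157).

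Slc7a3, a carrier of cationic amino acids, had log2 ratios from -0.42 to 0.034 with a mean of -0.18 ± 0.0459 (FDR 0.0566). The signal was 7.67 to 7.90 in WT and 7.56 to 7.73 in TG. Slc1a4, the ASCT1 carrier of serine and alanine, had -0.093 ± 0.0253 (FDR 0.0649), from -0.22 to -0.0020, and was below 0 on all 10 arrays. Its 2 probes had means of -0.19 ± 0.0633 and -0.00018 ± 0.0702, and neither passed over all probes (FDR 0.13 and 0.999). They went opposite ways in TG4, with signals of 7.79 and 9.39, against 8.16 to 8.43 and 8.70 to 8.95 in the other mice. Without TG4 Slc7a3 passed (FDR 0.0833) and Slc1a4 did not (FDR 0.103). Slc7a3 did not pass without WT3, WT4, WT6, TG2, TG3 or TG5 (-0.17 to -0.15, FDR 0.104 to 0.215), nor without array 2, 3, 8 or 9. Slc1a4 passed without WT6 and without no other mouse (FDR from 0.103 to 0.206), and did not pass without array 1, 2, 3, 4 or 6.

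The other transporters were spread widely. Slc3a2, the shared heavy chain of the LAT1 and xCT carriers, had -0.19 ± 0.0965 (FDR 0.316), from -0.93 to 0.19, and without TG4 -0.041 ± 0.0424. Slc7a5, the LAT1 light chain, had 0.095 ± 0.108, from -0.27 to 0.80, and its signal was 8.72 in TG4 and 7.55 to 7.85 in the other 9 mice. Without TG4 its mean was on the other side of 0, -0.076 ± 0.0469. The xCT light chain Slc7a11 had -0.015 ± 0.0256. Slc7a1, another cationic carrier, and Slc6a9, the glycine carrier GLYT1, had 0.090 ± 0.0511 and 0.077 ± 0.0759, and without TG4 0.13 ± 0.0547 and 0.17 ± 0.06.

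The 10 measured aminoacyl-tRNA synthetases, which load tRNA with amino acids, had means below 0 throughout, from -0.19 to -0.046 with a median of -0.11. Only Cars passed the limit. This common direction was that of 9 of 10 without TG4 and under robust regression, and of 8 of 10 with the brightest probe of each gene. With median centring in place of loess it was that of 6 of 10, with a median of -0.0067. All genes then had a median of -0.0266, with 20551 of 34498 below 0, so the synthetases did not stand below all genes under that setting. On single arrays, 4 to 10 of the 10 were below 0.

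Cars, the cysteine enzyme, had log2 ratios from -0.27 to 0.0031 with a median of -0.13, above 0 on array 3. The mean was -0.13 ± 0.0314 (FDR 0.0434), a ratio of 0.911, and -0.14 ± 0.0371 without TG4 (FDR 0.0853). Its 3 probes had means of -0.073, -0.079 and -0.25, and with the brightest probe alone Cars did not pass (-0.073 ± 0.0508, FDR 0.525). The signal was 7.89 to 8.12 in WT and 7.83 to 7.96 in TG, with overlap. Cars did not pass without WT3, WT4, WT5, TG3 or TG5 (-0.14 to -0.10, FDR 0.127 to 0.157), nor without array 2 or 6. Iars was closest to the limit (-0.12 ± 0.0375, FDR 0.107). Nars, Tars, Wars and Sars had means of -0.13, -0.12, -0.19 and -0.099, and Yars, Mars, Gars and Aars of -0.087, -0.067, -0.059 and -0.046. Without TG4 Wars and Tars were nearer to 0 (-0.071 ± 0.0616 and -0.040 ± 0.0362) and Gars was farther from it (-0.13 ± 0.0457). One probe each of Wars and Tars was far lower in TG4 (6.07 and 6.65) than in the other mice (7.3 to 7.82 and 7.54 to 7.98).

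**Figure D3:**
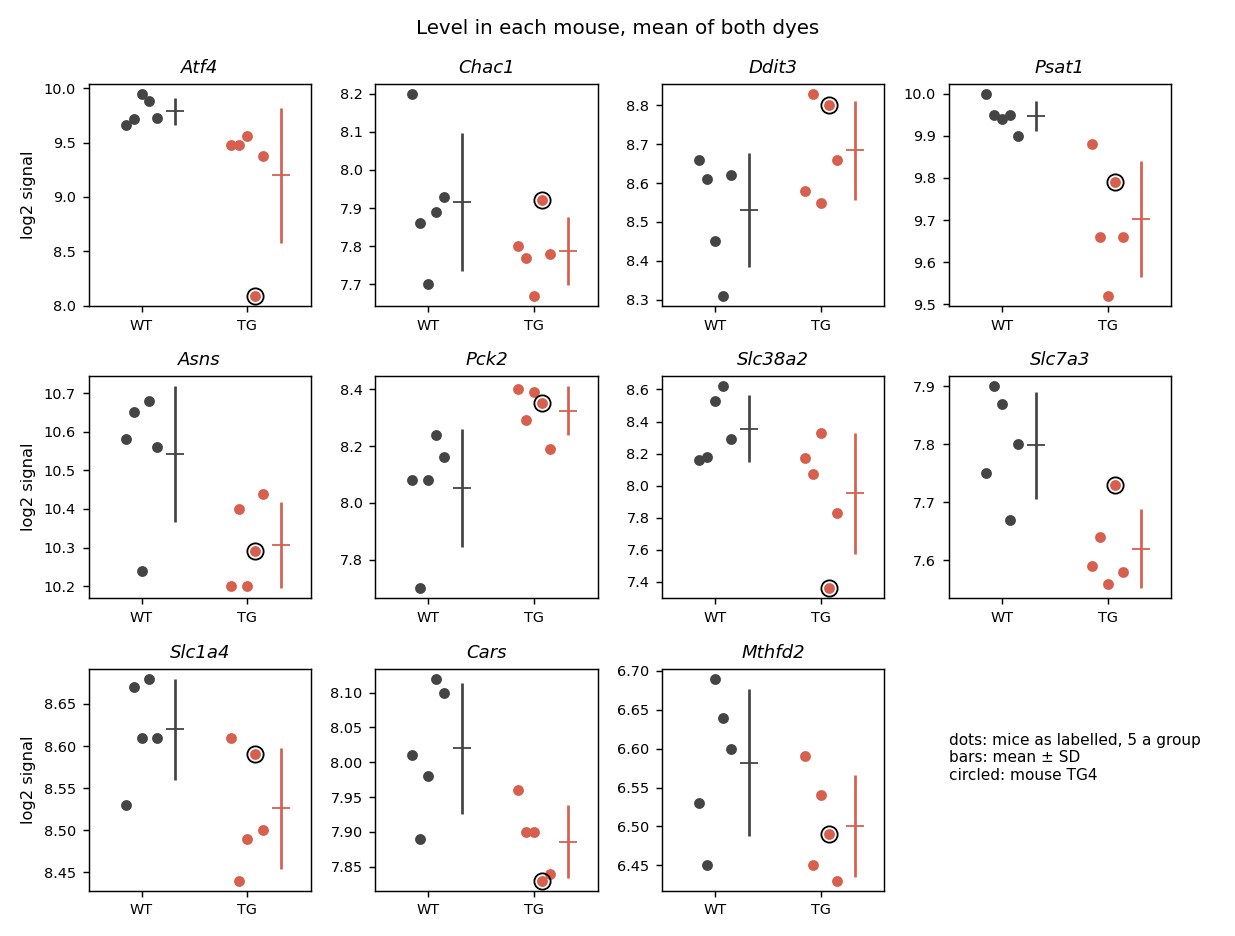
Log2 signal (y axis) in each of 5 WT and 5 TG mice as labelled (dots), with mean and SD (bars), for the 10 genes past the limit and Mthfd2. In Atf4 and Psat1 every TG mouse is below every WT mouse, and the circled mouse TG4 is at 8.09 in Atf4 and at 7.36 in Slc38a2.

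Aars is the gene whose probes disagreed in direction while 1 of them passed. The probe at chr8:110353197-110353255 had 0.27 ± 0.0589 (FDR 0.0388 over all probes, of which 7.42% passed) and the probe at chr8:110347594-110348092, nearer the start of the gene, had -0.36 ± 0.213 (FDR 0.416). The latter had a signal of 6.75 in TG4 and 8.40 to 8.80 in the other mice, while the former was 9.01 in TG4 and 8.36 to 8.97 in the others. Without TG4 the mean over both probes was 0.13 ± 0.0519 (FDR 0.218).

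This difference by position was not that of Aars alone. For the 2151 genes of the array with probes at least 1000 bases apart, the signal of the probe nearest the start was set against that of the probe nearest the end, each gene centered on the mean of the 10 mice. The median was -0.19 in TG4 and between -0.0075 and 0.068 in the other 9 mice, and it was below 0 for 71% of the genes in TG4 and for 34.7% to 52.1% in the others. In TG4 it was -1.92 for Aars, -1.54 for Slc3a2, -1.15 for Tars, -0.49 for Iars and -0.37 for Mars, while Phgdh and Cebpg had 0.068 and -0.023. These 7 genes of the response had both probes well above background on all arrays and a strand in the RefSeq promoter table. Cars, Wars and Slc38a2 also had probes this far apart but did not meet both conditions, and 1 probe of each was lowest in TG4 (6.92, 6.07 and 5.81, against 7.38 to 7.79, 7.3 to 7.82 and 6.63 to 7.56 in the other mice). The single probe of Atf4 could not be placed in this way, and the part of the probe position in the values of TG4 was not tested.

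**Figure D4:**
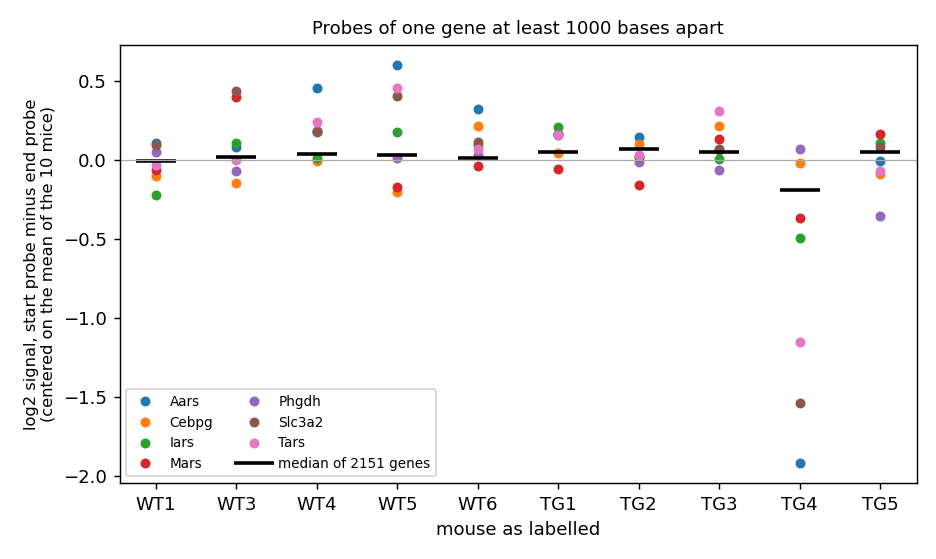
Log2 signal of the probe nearest the start minus that nearest the end of a gene (y axis, centered on the mean of the 10 mice) by mouse as labelled (x axis), for 7 genes of the response (dots) and the median of 2151 genes (black bars). The bar is at -0.19 in TG4, where Aars, Slc3a2 and Tars lie below -1, and near 0 in the other mice.

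Over the 42 genes, TG4 was the lowest mouse in 11 (26.2%, against 17% of all genes) and the highest in 5 (11.9%, against 18.4%). Without it, 7 of the 42 genes passed, 5 lower and 2 higher, and 1635 of all genes. The median log2 ratio was -0.042 without it, and -0.040 with it.

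Other genes of the pathway were read from lists of their own. The first held 12 genes, for eIF2 alpha, its kinases and a kinase regulator, its phosphatase and its exchange factor. None of the 12 passed in limma (0 of 12, 1 with an unadjusted p under 0.05, the regulator), and their median was -0.025. None of 17 genes of the other arms of the unfolded protein response passed either (0 of 17, 1 with an unadjusted p under 0.05), with a median of -0.012. The genes of this list, most of which serve protein folding in the endoplasmic reticulum, had FDR values of 0.142 and above. Of 16 mitochondrial synthetases none passed (0 of 16, 2 with an unadjusted p under 0.05), with a median of 0.021, and this list had 7 means below 0. In the same limma fit, 8.17% of all genes passed, and 6578 of 34498 had an unadjusted p under 0.05.

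Of the 8 other cytosolic synthetases, Hars passed and was higher (0.27 ± 0.056, FDR 0.0303, above 0 on 9 of 10 arrays), the opposite direction to Cars. The median of the 8 was -0.063, and 4 means were below 0. Of 12 further enzymes of serine, glycine and folate metabolism, Dld, a subunit of the glycine cleavage system and of several dehydrogenases, was lower (-0.38 ± 0.0811, FDR 0.0339) and Tyms, thymidylate synthase, was higher (0.076 ± 0.0196, FDR 0.0543), each with 1 sign on all 10 arrays.

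On the one-color ABI arrays of 5 WT and 5 TG mice, 2 of the 45 genes could be named from the identifiers of 33012 probes. In limma, 1 probe of the platform (0.00303%) passed, and 0 of the 3 probes of these genes did, with unadjusted p from 0.269 to 0.523. Eif4ebp1 had a log2 ratio of TG over WT of 0.92 ± 0.79 (FDR 1), with signals of 7.103 to 9.496 in WT and 7.535 to 12.03 in TG. Without the TG mouse at 12.03 it was 0.18. Cebpb, a partner of ATF4, had 0.18 ± 0.16 and 0.21 ± 0.32 in its 2 probes.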

How the data were processed

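RNA of the hippocampus was measured on microarrays of 5 platforms, and the Agilent and ABI arrays were analysed here. The members and gene lists were chosen with earlier results of these data known. For Agilent, the authors deposited spot intensities (mean over pixels, both dyes) from Feature Extraction 8.5.1.1 without normalization, beside log10 ratios that the software had corrected and normalized. The ABI intensities were deposited raw. The 30 arrays of the other platforms were not used here, and 80 Illumina columns carry names that match no mouse.

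Without background correction, log ratios of 41534 non-control spots underwent within-array loess, were turned to TG over WT, and were averaged over spots and then probes of a gene (R 4.3.3, limma 3.58.1). An intercept was fitted on 10 arrays with limma's empirical Bayes method, and Benjamini-Hochberg adjustment ran over 34498 genes (FDR 0.1, no filter). Both arrays of a mouse share its RNA, so these errors cover arrays, and nothing says how mice were bred or batched. The number of arrays limits the precision. Levels by mouse are the mean of both single channels after loess and Aquantile scaling. ABI signals were quantile normalized on the log2 scale in place of the vsn of the methods, which was not installed, and tested by genotype. Full values are given for members past the limit, for Atf4, Chac1 and Mthfd2, and for members whose probes disagree in sign with 1 of them past the limit. Of the other pathway lists only genes past the limit are named. Markers are also named where they differ from others of their list. Nupr1, Slc3a2, Slc7a5 and other members below the limit are accounted for by role, and examples among them and among the probes by position were chosen after their values were seen. Sequences are from RefSeq (GRCm38.p6), matched by symbol. Fits were tested on simulated data. The alternatives covered background correction, normalization, pixel summary, flagged and dim spots, probe choice, dye, weights, robust regression, the replicate block, 1 value per mouse, the exchange of arrays and leaving out each array or mouse. Arrays of the same mouse share their numbers through the labels. Their log ratios had a consensus correlation of -0.252 (WT mouse) and -0.162 (TG mouse), and of -0.0232 and 0.123 with a dye term. For ABI, deviations of WT and TG mice of one number had correlations from -0.154 to 0.24. The summed signal of 1 further marker list is not reported here.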

Additional observations from a re-analysis of the deposited data

Results flagged for a closer look

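In groups of 5 arrays or mice, the value farthest from the rest was compared with the range of its group for the 10 genes past the limit and Mthfd2. Of 44 groups, 6 held a value far from the rest by Dixon's ratio (limit 0.71), and chance gives about 1 in 20. Atf4 was at -1.45 on array 1 (ratio 0.867, next value -0.45) and at -1.74 on array 9 (ratio 0.83, next value -0.43). Its log2 signal in TG4, the mouse on both arrays as labelled, was 8.09 (ratio 0.878, next value 9.38). Ddit3 was at 0.36 on array 6, with the next value at 0.16. Slc1a4 was at -0.0020 on array 9, nearer to 0 than the next value of -0.046. Asns was at 10.24 in the mouse labelled WT4, below the other WT mice at 10.56 and above.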

How the results depend on the processing

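Of the 10 genes past the limit, all passed with normexp correction, scale normalization, median pixels, without flagged spots and with array weights. The brightest probe of each gene lost Cars and Slc1a4, the scanner software's log ratio lost Slc38a2 (-0.74, FDR 0.107), and robust regression lost Slc7a3 (FDR 0.123). These settings also added members. The brightest probe added Aars and Iars, the scanner software's log ratio added Cth, and robust regression added Cth, Iars, Mthfd2 and Sars. Median centring in place of loess left 1 of the 10 genes, Pck2, with 1166 of all genes past the limit. Of those 1166, 9.01% were lower in TG as against 50.4% with loess. The median was then -0.00081 over the members and -0.0266 over all genes. Except for the exchange of arrays, which turns every direction, no direction of the 10 genes or of Mthfd2 turned. The cause was not tested. With 1 value per mouse, 0 members and 29 genes passed, and after the exchange of arrays 0 and 11. At an FDR of 0.05 the numbers were 6 and 1231. The scanner software's log ratio gave a median of -0.084. Without single arrays or mice, the members past the limit numbered 1 to 12 and the genes 334 to 3143, and the median lay between -0.073 and -0.026. Without the mouse labelled WT4, 1 member and 334 genes passed, without WT3 2 and 360, without WT5 3 and 763, without TG3 3 and 1031, without TG5 3 and 831, without TG2 4 and 1214, and without TG4 7 and 1635. Without WT1 and without TG1 6 members passed each, the latter with 1255 genes. Without array 2, 4 members and 1174 genes passed, and without array 3, 6, 8 or 9, 1257, 998, 1786 or 1522 genes.

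The replicate block of the WT mouse gave 12 members and 5189 genes, that of the TG mouse 11 and 4217, both with a negative correlation. With a dye term in the block, chosen after seeing the data, the numbers were 12 and 3745, and 11 and 2331. All 10 arrays were scanned on 1 day, so a block for the scan day could not be run. Arrays 7 and 8 belong to a later scan session than the other 8, and a term for this session, chosen after seeing the data, gave 11 members and 2832 genes, and the earlier 8 arrays alone gave 8 and 2075. On ABI, none of the members' probes passed under the replicate block or any other setting run.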
